A study of Mus musculus with 4 samples.

Results

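The transcription factors that guide the development of granulocytes were followed in bronchoalveolar lavage fluid (BALF) cells of bleomycin-administered mice: Gata1, Gata2, Zfpm1, Cebpa, Cebpb, Cebpd, Cebpe, Gfi1 and Spi1. The members are these 9 of the 20832 genes that could be named on the array, found through the RefSeq accession of each probe, and all 9 had a probe: 10 of the 39429 probes on the array, because Zfpm1 had 2. They were chosen with their difference between the genotypes known, so that their values are given as a description, with no test. Of the 10 probes, 9 (8 genes) passed the filter on dim signals, which asks for a signal well above background on both arrays of a genotype, and the probe of Gata2 did not.

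The study asked how loss of S1PR2, a G protein-coupled receptor for the lipid mediator sphingosine-1-phosphate, alters the response of BALF cells in experimental lung fibrosis. Both groups consisted of bleomycin-administered adult mice, namely wild-type littermates and constitutive S1pr2-/- nulls of a mixed 129Ola and C57BL/6J background, and no saline-administered mice were measured on arrays. Bleomycin was injected intraperitoneally at 0.035 U/g on 2 occasions a week, and RNA was prepared on day 22 from all cells of the lavage, which the sample labels call alveolar macrophages. Each genotype had 2 arrays, all 4 on 1 slide with 1 scan, and pooling of mice before hybridization is not given in the sources used here, so that the spread between arrays may be partly technical.

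GATA1 is a zinc finger protein that directs erythroid, megakaryocytic, eosinophil and mast cell development, GATA2 acts earlier in blood progenitors and in mast cells, and ZFPM1, known as FOG1, is a cofactor that binds the zinc finger of GATA1. The C/EBP proteins are leucine zipper factors: CEBPA opens the granulocyte and monocyte path in the marrow, CEBPB and CEBPD act in mature and inflamed myeloid cells, and CEBPE drives the terminal steps in which neutrophils and eosinophils fill their late granules. GFI1 is a repressor needed for neutrophil formation, and SPI1, known as PU.1, is the ETS factor on which macrophages and granulocytes both depend.

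Values are log2 of the processed signal over the 75th percentile of the array, a relative level in which 0 equals that percentile, and differences are the arrays labelled S1pr2-/- minus the wild-type arrays with the standard error (SE) of limma. The 75th percentiles lay between 2489 and 2817 intensity units, and between 67.6% and 72.1% of the probes were well above background. The probe of S1pr2 read -0.13 and -0.16 in wild-type against 2.67 and 2.54 with the S1pr2-/- label, a difference of 2.75 (SE 0.0724) or 6.72-fold higher. The targeted gene thus went against its label, and the position of this probe relative to the disrupted part of the gene is not given in the sources used here. An exchange of the group labels, which would turn the sign of every difference below, was not tested. Alveolar macrophage markers were high on all 4 arrays, with medians over 10 genes of 4.92 and 5.05 in wild-type and 4.86 and 4.98 on the arrays labelled S1pr2-/-. Over all 27158 probes tested, 0 were lower and 0 higher at an adjusted p under 0.05 (limma, Benjamini-Hochberg), against 1518 lower and 1083 higher at an unadjusted p under 0.05. The balance of the unadjusted counts turned with the scaling: 1049 lower and 1709 higher with quantile normalization, 1433 and 1694 with the percentile over probes well above background, and 1177 and 1333 with a model-based background correction (normexp). The test of the methods gave 0 lower and 0 higher probes at an adjusted p under 0.05. Its counts at an unadjusted p under 0.05 were 1065 lower and 995 higher.

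Gata1 and Cebpe were far lower with the S1pr2-/- label than in wild-type cells, on every array, whereas the other C/EBP genes, Zfpm1 and Spi1 stayed within a narrow band. Gfi1 lay between these extremes, and Gata2 was not measurable. By the rule of a difference below 0.5-fold, 2 of the 9 tested member probes were lower, beside a background of 1.24% of all probes tested (1.50% of named genes), and 0 were above 2-fold, beside 0.180%. The background shares with an unadjusted p under 0.05 added to the fold were 0.633% of probes lower and 0.107% higher. The groups were apart, with wild-type the higher, for 4 of the 9 (Gata1, Cebpe, Gfi1 and Cebpd), a pattern found in 21.8% of all probes. They were apart with wild-type the lower for 1 of the 9 (Cebpa), found in 20.0%. As the members were picked on this contrast, nothing is read from these shares.

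**Figure D1:**
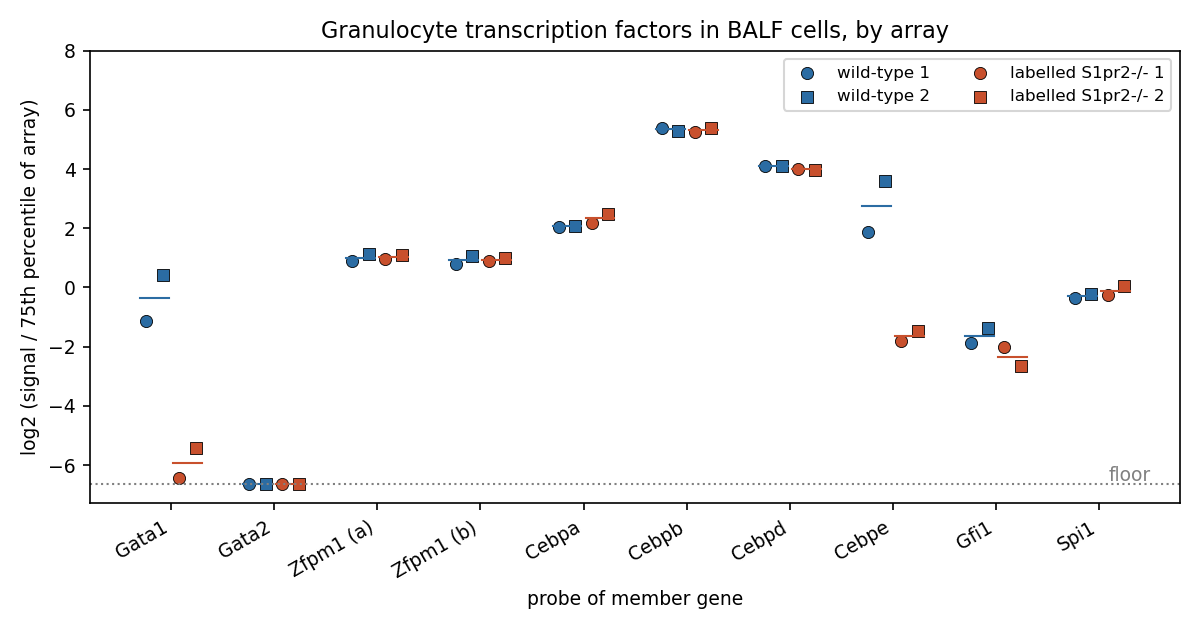
Level of each of the 10 member probes (horizontal axis) on each of the 4 arrays, as log2 of the signal over the 75th percentile of the array (vertical axis); circles are array 1 and squares array 2 of each genotype, horizontal bars the mean of 2 arrays, and the dotted line the floor of -6.64. Gata1 and Cebpe show the wide gaps between genotypes, Gata2 lies on the floor on all 4 arrays, and levels of different probes are not comparable with each other.

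Gata1 was readily detected in the wild-type samples. Its level was -1.13 and 0.41 on wild-type arrays 1 and 2, and -6.45 and -5.44 on arrays 1 and 2 labelled S1pr2-/-. In intensity units these were 1171 and 3302 against 32.3 and 59.2, and the probe was well above background on 4 of 4 arrays. The groups did not overlap, and the lowest wild-type value exceeded the highest value labelled S1pr2-/- by 4.32. The means were -0.36 ± 1.08 (SD, n = 2) and -5.94 ± 0.71 (SD, n = 2), a difference of -5.58 (SE 0.717) or 48.0-fold lower. Of 15429 named genes tested, 2 had a lower difference.

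The size of the Gata1 difference depended on the arrays and on the treatment of dim signals, whereas its direction did not. Leaving out each array in turn gave differences between -6.35, without wild-type array 1, and -4.82, without wild-type array 2, or 81.7-fold and 28.2-fold lower. Normexp, which lifts dim probes, gave -3.55, or 11.7-fold lower. The sign was kept in 10 of 10 alternatives, among which removal of the floor and a block for the replicate number could not change the difference. The authors' table moved all tested member probes alike, by a very small amount.

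The upstream window of Gata1 is shown as the region in which motifs of the member factors were sought. In the 250 bases before a RefSeq transcript start, the GATA motif (the letters GATA with A or T before them and A or G after them), the C/EBP motif TTGCNNAA and the PU.1 motif GAGGAA were searched on both strands. Of 32851 such windows in the mouse, 26.5% held a GATA match, 9.56% a C/EBP match and 23.3% a PU.1 match. Capitals mark a match, the sequences run 5' to 3' on the strand of the gene (RefSeq, GRCm38.p6), and positions count the first base of a match back from the start. The Gata1 window held 1 PU.1 match, at 22 bases before the start, and no match to the GATA or C/EBP letters.
Gata1, chrX:7967911-7968160, minus strand: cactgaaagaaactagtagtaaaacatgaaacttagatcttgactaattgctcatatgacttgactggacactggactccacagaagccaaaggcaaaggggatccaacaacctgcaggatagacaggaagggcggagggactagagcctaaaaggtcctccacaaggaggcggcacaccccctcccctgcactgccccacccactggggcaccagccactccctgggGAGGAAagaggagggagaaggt

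Gata2, the family member of blood progenitors and mast cells, gave no usable level. Its probe was at the floor of -6.64 on all 4 arrays, with intensities between 3.72 and 12.9, and was well above background on 0 of 4 arrays. No fold is given.

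Zfpm1, the cofactor of GATA1, was present at similar levels in both genotypes. The brighter of its 2 probes read 0.91 and 1.12 in wild-type against 0.95 and 1.10, a difference of 0.01 (SE 0.114). The other probe read 0.79 and 1.05 against 0.89 and 0.99, a difference of 0.02 (SE 0.125). The groups overlapped on both probes, and when single arrays were left out the brighter probe ranged from -0.09 to 0.12 and the other from -0.12 to 0.15.

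Cebpe was the member that separated from its own family. The late granulocytic factor read 1.89 and 3.59 in wild-type against -1.80 and -1.45 with the S1pr2-/- label. The intensities were 9455 and 29965 against 808 and 940, so that the lower group was still well above background on both arrays. The groups did not overlap, with a gap of 3.34 between the nearest arrays. The means of 2.74 ± 1.20 and -1.63 ± 0.25 (SD, n = 2 each) differed by -4.37 (SE 0.680), or 20.6-fold lower, and 11 of 15429 named genes had a lower difference. Without single arrays the difference lay between -5.22 (without wild-type array 1, 37.2-fold lower) and -3.52 (without wild-type array 2, 11.4-fold lower), and under the settings that kept all arrays between -4.37 and -4.04.

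Cebpa, the factor of early granulocyte and monocyte commitment, leaned the other way by a small amount. It read 2.06 and 2.07 in wild-type and 2.19 and 2.48 with the other label, without overlap but with a gap of only 0.12. The difference was 0.27 (SE 0.125), 1.20-fold higher, and ranged from 0.12 to 0.41 when single arrays were left out.

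Cebpb, the inflammatory C/EBP, was steady across the arrays. The values were 5.40 and 5.29 against 5.25 and 5.39, which overlapped, with a difference of -0.02 (SE 0.0875) that changed sign between -0.09 and 0.05 with the array left out. Cebpd, which acts beside it, read 4.10 and 4.09 against 4.02 and 3.98. Its groups did not overlap, yet the gap was 0.07 and the difference -0.10 (SE 0.0553), or 1.07-fold lower.

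Spi1, the factor shared by macrophages and granulocytes, read -0.37 and -0.22 in wild-type against -0.25 and 0.03. The groups overlapped, and the difference was 0.18 (SE 0.138), with 0.04 to 0.33 when single arrays were left out.

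Gfi1, the repressor of the neutrophil line, was moderately lower. It read -1.88 and -1.38 against -2.03 and -2.64, with intensities of 694 and 959 against 690 and 414. The groups did not overlap, but the gap between wild-type array 1 and array 1 labelled S1pr2-/- was 0.15. The means of -1.63 ± 0.36 and -2.33 ± 0.43 (SD, n = 2 each) differed by -0.71 (SE 0.314), or 1.63-fold lower, with a range of -1.01 (without array 1 labelled S1pr2-/-) to -0.40 (without array 2 labelled S1pr2-/-). Without array 1 labelled S1pr2-/- the count of member probes below 0.5-fold was 3 and included Gfi1. The window before the more distal of its 2 RefSeq starts is shown because it held the only C/EBP match among the 8 windows of the 6 members with an entry, at 143 bases before the start. Those 8 windows held 0 GATA matches.
Gfi1, chr5:107725806-107726055, minus strand: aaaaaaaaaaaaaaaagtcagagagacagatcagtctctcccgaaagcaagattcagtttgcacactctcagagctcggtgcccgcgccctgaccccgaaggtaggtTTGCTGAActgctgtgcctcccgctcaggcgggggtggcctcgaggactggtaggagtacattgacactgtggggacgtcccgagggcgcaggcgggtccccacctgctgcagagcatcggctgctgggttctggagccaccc

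**Figure D2:**
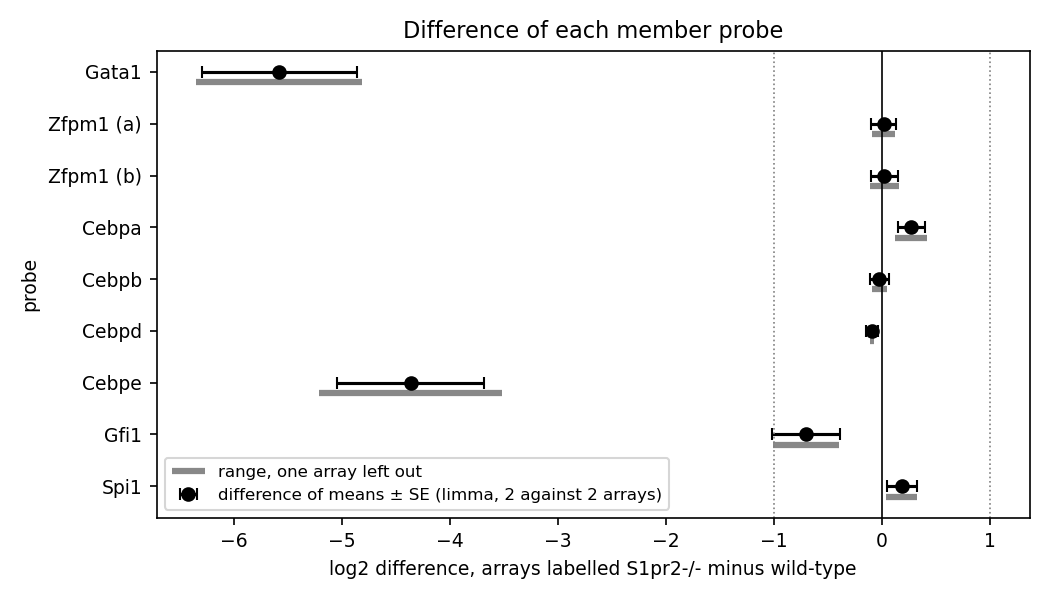
Log2 difference of each of the 9 tested member probes, arrays labelled S1pr2-/- minus wild-type (horizontal axis); points are differences of means with the limma SE (2 against 2 arrays), grey bars the range when each array was left out, and dotted lines mark 0.5-fold and 2-fold. Gata1 at -5.58 and Cebpe at -4.37 lie left of the 0.5-fold line with their whole ranges, and the other 7 probes lie between -0.71 and 0.27.

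Among the members, the 2 factors with wide gaps also differed most between the wild-type arrays. Gata1 was 1.53 higher on wild-type array 2 than on wild-type array 1, and Cebpe was 1.70 higher. Between these arrays, 38 of 15429 named genes had a higher difference than Gata1 and 24 a higher one than Cebpe, and 95% of all named genes lay between -0.65 and 0.65. Between the arrays labelled S1pr2-/- the second was 1.00 above the first for Gata1 and 0.35 for Cebpe, with 95% of genes between -0.64 and 0.66. Gfi1 differed, array 2 minus array 1, by 0.51 in wild-type and by -0.61 on the arrays labelled S1pr2-/-. For Zfpm1, Cebpa, Cebpb, Cebpd and Spi1 the differences between arrays of a genotype were at most 0.29 in size.

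**Figure D3:**
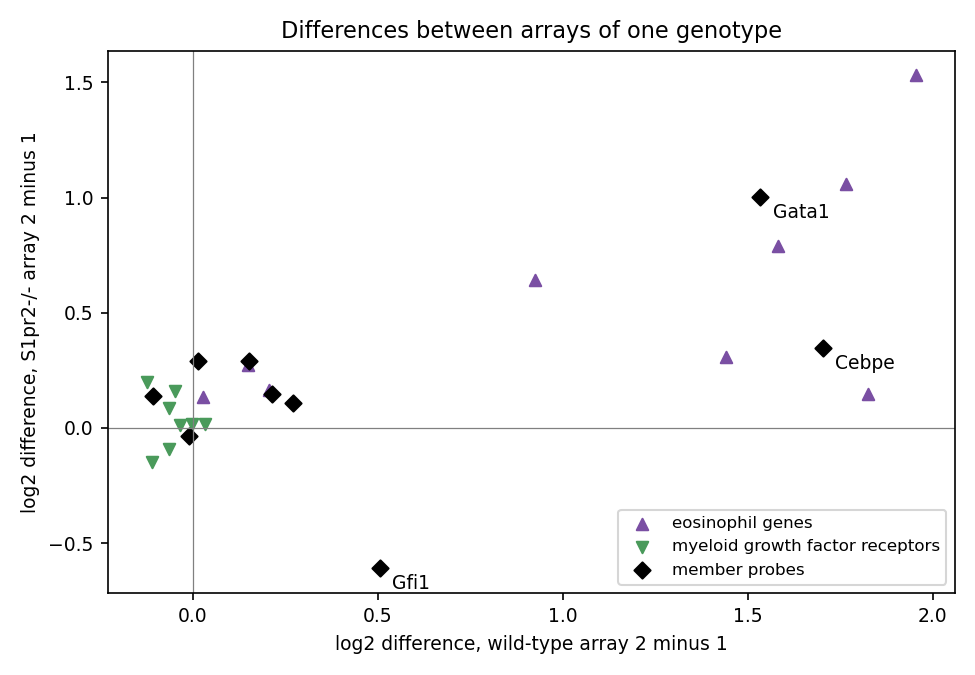
Difference between the arrays of a genotype, array 2 minus array 1, in wild-type (horizontal axis) and on the arrays labelled S1pr2-/- (vertical axis), both in log2 units; diamonds are the 9 tested member probes, upward triangles 9 eosinophil genes and downward triangles 8 myeloid growth factor receptors. Gata1 and Cebpe lie at 1.53 and 1.70 on the horizontal axis, on the right with 6 of the 9 eosinophil genes, while the receptors lie around 0.

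Genes with a pattern over the 4 arrays like that of Gata1 or Cebpe were ranked by the root mean square (RMS) difference of their log2 values, each centered on its own mean. The ranking covers 15429 named genes on only 4 arrays, and it describes likeness in these arrays alone. For Gata1 the nearest gene was Prg2, which encodes the major basic protein of eosinophil granules, with an RMS difference of 0.155. Retnlg, a resistin-like protein of neutrophils, followed at 0.390, and Alox15, a lipoxygenase of eosinophils and some macrophages, at 0.448. The next were the eotaxin receptor gene Ccr3 (0.565), eosinophil peroxidase Epx (0.619), Cebpe itself (0.654), Padi4, an arginine deiminase of granulocytes (0.664), and Serpinb2, an inhibitor of plasminogen activators (0.675).

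Cebpe was nearest to Epx, with an RMS difference of 0.114. Ren2 (0.128), Ldhc (0.138), Ccr3 (0.170), Grm6 (0.170), F5 (0.184), Serpinb2 (0.240) and Retnlg (0.306) completed the nearest 8. Il5ra, the receptor chain for interleukin 5, came ninth at 0.330, and Gata1 was at rank 20. Dim values shape this order: on the arrays labelled S1pr2-/-, Ldhc and Grm6 reached the floor in both cases and Epx in 1. The other members were far down both rankings, with Gfi1 at rank 379 for Gata1 and 334 for Cebpe.

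**Figure D4:**
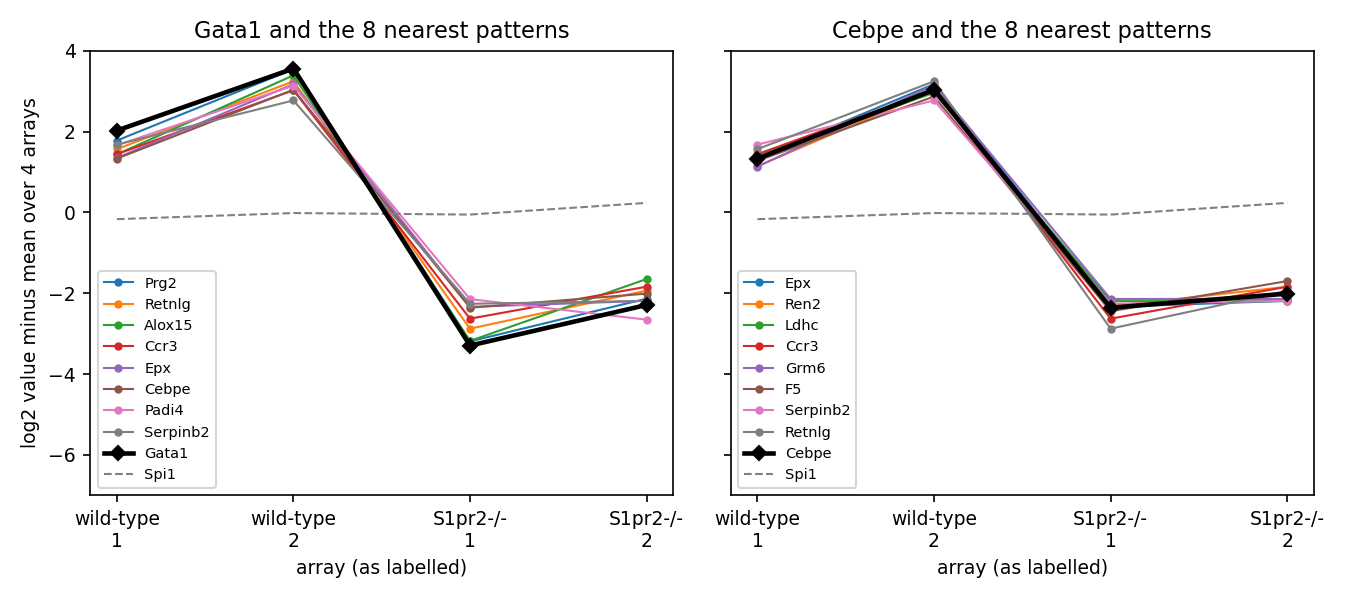
Log2 values minus the mean of each gene over the 4 arrays (vertical axis), by array as labelled (horizontal axis), for Gata1 and its 8 nearest genes (left) and Cebpe and its 8 nearest genes (right); Spi1 is drawn dashed for comparison. The lines of each panel run together, highest on wild-type array 2, and Prg2 departs from Gata1 by an RMS of 0.155 and Epx from Cebpe by 0.114.

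Eosinophil genes had the lowest median difference of the 16 lists. Of 10 listed genes 9 were tested, and 5 of the 9 were below 0.5-fold with an unadjusted p under 0.05 (limma), beside 0.823% of all named genes, with 0 above 2-fold, beside 0.130%. The 16 lists were chosen with earlier results of these data known. Nothing is therefore read from the shares set beside their counts, here or below. The median difference was -3.73, against 0.00 over all named genes. It was -2.43 with normexp, and with single arrays left out it lay between -4.45 (without wild-type array 1) and -3.01 (without wild-type array 2). The smallest adjusted p of any gene in the 16 lists was 0.509, so that none passed the adjusted threshold. Prg2 read -0.07 and 1.69 in wild-type against -5.04 and -3.99, a difference of -5.32 (SE 0.805) or 40.1-fold lower. For Epx the values were -2.96 and -1.13 against -6.64 and -6.50, the first of the latter at the floor. Both genes were apart between the groups by several log2 units on every array.

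The receptors of the eosinophil list showed the same separation. Ccr3 read -0.41 and 1.17 against -4.48 and -3.69, a difference of -4.47 (SE 0.693), and Il5ra read -2.00 and -0.56 against -5.17 and -4.86, a difference of -3.73 (SE 0.578). Alox15 differed by -4.83 (SE 0.971). By contrast, Siglecf, a lectin that alveolar macrophages also carry, differed by -0.15 (SE 0.0757), and the eosinophil-associated ribonucleases Ear1 and Ear2 by -0.07 (SE 0.132) and -0.12 (SE 0.116). Ear6, of the same ribonuclease family, read 1.81 and 2.73 against 1.16 and 1.80, a difference of -0.79 (SE 0.442) without overlap. All 9 tested genes were higher on wild-type array 2 than on wild-type array 1, with a median of 1.44, and all 9 were higher on array 2 labelled S1pr2-/- than on array 1, with a median of 0.31.

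In a lavage sample, fewer eosinophils and less RNA per cell cannot be told apart. Summed over the 9 genes, the signal relative to the 75th percentile was 309 and 356 in wild-type and 282 and 322 on the arrays labelled S1pr2-/-. Without Ear1, Ear2 and Siglecf, left out after their values were seen, the sum over 6 genes was 5.87 and 14.4 against 2.35 and 3.69, and on the arrays labelled S1pr2-/- most of it came from Ear6. The part of eosinophil numbers in the values of Gata1 and Cebpe was not tested. Mast cell and basophil genes, the other lines that use GATA factors, were often too dim for the filter: 5 of 11 listed genes were tested, Cpa3, Mcpt8, Cma1, Fcer1a and Ms4a2 were not well above background on both arrays of either genotype, and Tpsab1 had no named probe. The 5 tested had a median difference of -0.19 with 0 below 0.5-fold, and their summed signal was 0.788 and 0.940 against 0.710 and 0.718. Of the 5, 3 were lower and 1 higher without overlap, beside 21.9% and 22.1% of all named genes. Hdc differed by -0.60 (SE 0.190) and Mcpt4 by -0.59 (SE 0.162), with Mcpt4 at the floor on array 1 labelled S1pr2-/-.

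Upstream windows of Ccr3, Il5ra and Retnlg are shown because these genes were near Gata1 or Cebpe in the rankings and held GATA or C/EBP letters, in contrast to the Gata1 window above. They were picked for these letters, so that their matches say nothing of the other near genes. Prg2 and Alox15, nearer to Gata1 than Ccr3, and Epx, nearest to Cebpe, had no match or no window. Of 8 windows of eosinophil genes, 3 held a GATA match, 2 a C/EBP match and 2 a PU.1 match. Among 9 windows of neutrophil late granule genes the numbers were 3, 5 and 5. The shares over all windows were 26.5%, 9.56% and 23.3%. In other lists a GATA match was held by 7 of 10 windows of mast cell and basophil genes and 6 of 7 of erythroid genes. Among macrophage factors 1 of 20 windows held one. Ccr3 held GATA matches at 64 and 30 bases before the start and a PU.1 match at 181, Il5ra a GATA match at 74, and Retnlg a GATA match at 143 and a C/EBP match, on the opposite strand, at 246. None of these matches overlapped another, and a match describes letters only.
Ccr3, chr9:124021721-124021970, plus strand: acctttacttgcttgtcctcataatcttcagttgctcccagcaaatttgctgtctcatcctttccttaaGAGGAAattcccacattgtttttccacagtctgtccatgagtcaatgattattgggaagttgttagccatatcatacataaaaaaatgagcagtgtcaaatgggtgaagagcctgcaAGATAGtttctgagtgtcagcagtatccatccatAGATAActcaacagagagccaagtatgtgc
Il5ra, chr6:106749038-106749287, minus strand: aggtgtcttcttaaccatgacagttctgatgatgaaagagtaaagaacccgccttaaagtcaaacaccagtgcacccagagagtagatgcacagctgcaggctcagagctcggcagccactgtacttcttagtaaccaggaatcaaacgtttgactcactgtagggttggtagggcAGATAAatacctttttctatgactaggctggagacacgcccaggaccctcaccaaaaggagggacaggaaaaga
Retnlg, chr16:48872358-48872607, plus strand: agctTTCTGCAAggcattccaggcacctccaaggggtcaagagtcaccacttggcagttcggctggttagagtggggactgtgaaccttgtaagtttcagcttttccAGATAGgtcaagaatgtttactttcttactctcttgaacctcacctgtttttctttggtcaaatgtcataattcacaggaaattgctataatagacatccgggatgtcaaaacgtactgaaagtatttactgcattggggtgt

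Neutrophil genes split into those that were lower together with Cebpe and those that were not. The late granule list is wider than its name, as it also holds the arginine deiminase gene Padi4 and the resistin-like gene Retnlg. Of its 10 genes 8 were tested. Retnlg, Padi4 and the gelatinase gene Mmp9 were the 3 below 0.5-fold with an unadjusted p under 0.05 (limma), beside 0.823% of all named genes. Above 2-fold there were 0, beside 0.130%. Retnlg read 2.65 and 4.33 against -1.79 and -0.85, a difference of -4.81 (SE 0.754) or 28.1-fold lower. Padi4 read -1.67 and -0.19 against -5.47 and -5.98, a difference of -4.80 (SE 0.611), and a second, dimmer probe of this gene differed by -1.81 (SE 0.499). These are products of mature granulocytes, and neither overlapped between the groups.

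The classical secondary granule genes showed no such gap. Ltf, which encodes lactoferrin, read 0.84 and 1.33 against 0.81 and 2.08, a difference of 0.36 (SE 0.532). Camp, the cathelicidin gene, differed by -0.11 (SE 0.0970), Lcn2, lipocalin 2, by -0.02 (SE 0.0825), and Mmp8, neutrophil collagenase, by -0.32 (SE 0.186). The median of the 8 genes was -0.26, and Ngp and Itgb2l were not tested. Without Retnlg and Padi4, left out after their values were seen, the summed signal of the list was 4.32 and 4.99 in wild-type and 3.73 and 6.54 on the arrays labelled S1pr2-/-, overlapping groups.

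Other neutrophil lists were lower to a smaller degree or not at all. Among 4 tested genes of neutrophil receptors and cytosolic proteins, the chemokine receptor gene Cxcr2 differed by -0.59 (SE 0.103) and Csf3r, the receptor for the granulocyte growth factor, by -0.28 (SE 0.0836), while the calgranulin gene S100a8 differed by 0.25 (SE 0.195). The second calgranulin gene, S100a9, read 3.50 and 3.74 against 3.15 and 1.16. Its difference of -1.46 (SE 0.786) was below 0.5-fold and rested on array 2 labelled S1pr2-/-. Among these 4 genes, 3 were lower without overlap, beside 21.9% of all named genes, and the median was -0.44. The 4 primary granule genes, made in marrow precursors, had a median of -0.01, with 0 past either fold. Of these, Mpo, Prtn3 and Ctsg lay between -6.39 and -4.89 on all arrays, near the floor of -6.64. A large fall could therefore not show in them. The bright gene Elane differed by 0.15 (SE 0.0553).

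No tested gene of the erythroid list or of the megakaryocyte and platelet list fell below 0.5-fold as Gata1 did. Gfi1b and Nfe2, factors of these lines kept in other lists, differed by -1.71 (SE 0.561) and -0.91 (SE 0.276), both without overlap. Which genes respond to GATA1 in these cells was not tested. Of 10 erythroid genes 7 were tested, 0 were past 2-fold in either direction, and 4 were higher without overlap, beside 22.1% of all named genes. Epor, the receptor for erythropoietin, read 0.67 and 0.62 against 1.25 and 1.21, a difference of 0.59 (SE 0.0593), and Alas2, the first enzyme of erythroid heme synthesis, differed by 0.48 (SE 0.282). The median of the list was 0.40, and it ranged from 0.13 without wild-type array 2 to 0.65 without wild-type array 1. In the megakaryocyte and platelet list 3 of 7 genes were tested, with a median of -0.10 and overlapping groups for all 3. Ppbp, Itga2b, Gp1ba and Gp9 were too dim for the filter.

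Several relatives of the members differed as well. Among the other GATA, FOG, C/EBP, GFI and PU.1-related genes, 9 of 10 were tested and 1 was below 0.5-fold with an unadjusted p under 0.05, beside 0.823% of all named genes. Both arrays of a group were apart from the other group for 7 of the 9, 4 of them lower and 3 higher with the S1pr2-/- label, beside 21.9% and 22.1%. The gene below 0.5-fold was Gfi1b, a repressor of the erythroid and megakaryocytic lines, with -2.83 and -1.59 in wild-type against -4.28 and -3.57, a difference of -1.71 (SE 0.561). Gata3, the GATA factor of T and innate lymphoid cells, differed by -0.81 (SE 0.262) and Gata6, which macrophages of the body cavities use, by -0.67 (SE 0.0951), both without overlap. Spic, an ETS gene of iron-recycling macrophages, was higher by 0.50 (SE 0.181) and Spib, its lymphoid relative, differed by -0.69 (SE 0.238). Cebpg and Ddit3, the remaining C/EBP genes, differed by 0.06 (SE 0.0537) and -0.04 (SE 0.0698).

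Of 20 partner and blood-line factors 18 were tested, with a median of -0.05. The 1 gene below 0.5-fold with an unadjusted p under 0.05, beside 0.823% of all named genes, was Myb, a factor of immature blood cells, with -2.66 and -1.89 against -3.65 and -3.89, a difference of -1.49 (SE 0.319). Nfe2, a factor of the erythroid and megakaryocytic lines, differed by -0.91 (SE 0.276), and Xbp1, a factor of secretory cells and of eosinophil development, by -0.29 (SE 0.0684). Among members of the complex in which GATA1 binds DNA, the differences were mixed, with Tcf3 at -0.25 (SE 0.277), Ldb1 at -0.04 (SE 0.0780) and Lmo2 at 0.30 (SE 0.0538). A second, dimmer probe of Tcf3 differed by 0.03 (SE 0.179). Tal1, at 0.31 (SE 0.238), lay between -6.24 and -5.52, near the floor of -6.64, and its groups overlapped. Of the whole list, Klf1 and Erg were not tested.

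Macrophage genes had medians near 0, with differences of both signs among single genes. All 13 macrophage factors were tested, 0 were past 2-fold, and the median was 0.05, with Pparg, the factor of alveolar macrophages, at 0.21 (SE 0.0813) and Egr1, an early response gene, at -0.75 (SE 0.238). The 8 myeloid growth factor receptors had a median of -0.06 and lay between -0.17 and 0.17. The summed signal of 10 alveolar macrophage markers was 549 and 605 in wild-type and 525 and 606 on the arrays labelled S1pr2-/-. Of these 10 genes 3 were lower and 2 higher without overlap, beside 21.9% and 22.1% of all named genes. Among them were the fatty acid binding protein genes Fabp1 at -0.77 (SE 0.370) and Fabp4 at 0.58 (SE 0.209). The 5 tested general macrophage markers had a median of -0.05, 6 T cell markers -0.27, 5 B cell markers -0.72 and 6 epithelial markers -0.40. Of the 6 epithelial genes 5 were lower without overlap, beside 21.9% of all named genes. The B cell median rested on wild-type array 1, as it was 0.01 without that array and -1.48 without wild-type array 2. The T cell median was -0.64 without array 1 labelled S1pr2-/- and -0.11 without array 2 of that label.

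**Figure D5:**
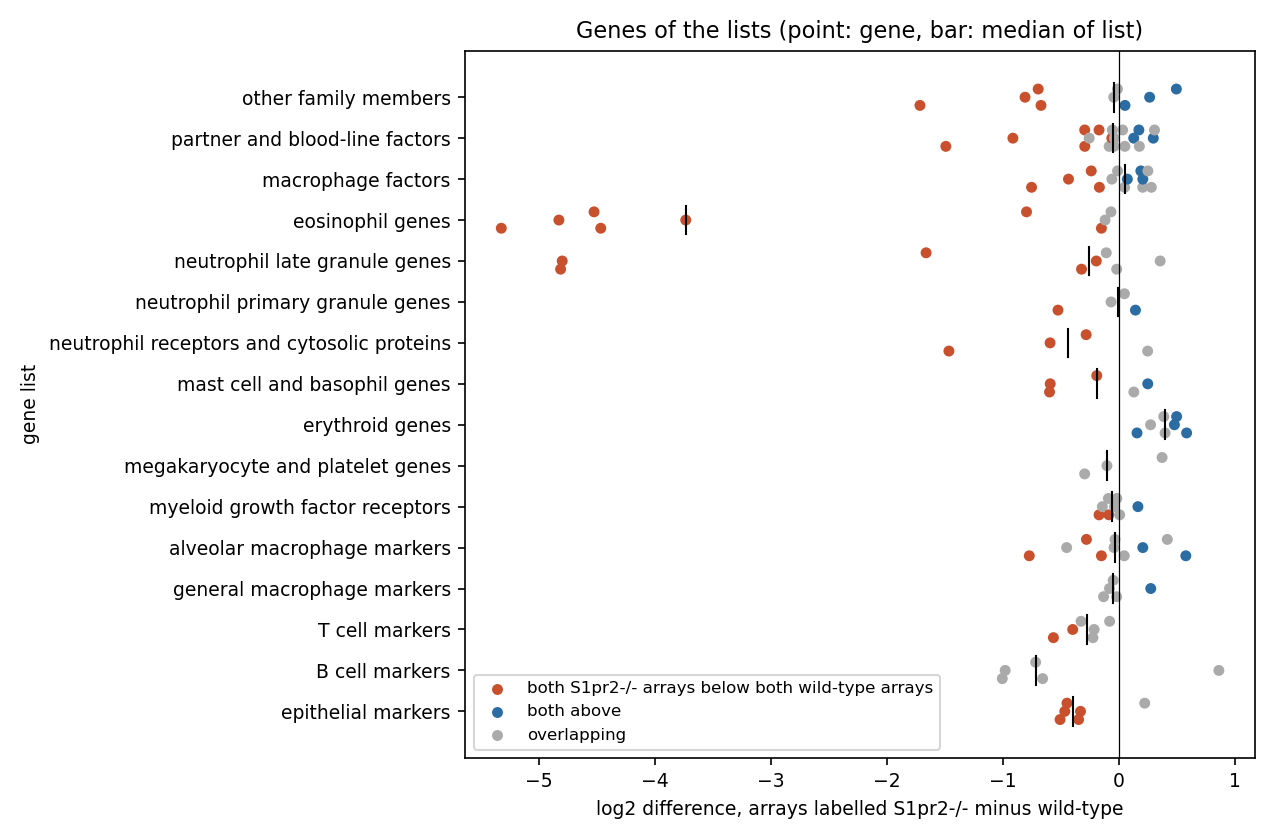
Log2 difference, arrays labelled S1pr2-/- minus wild-type (horizontal axis), of each tested gene (points) in the 16 lists (vertical axis), with the median of a list as a black bar; red points mark groups that do not overlap with wild-type the higher, blue points the same with wild-type the lower, and grey points groups that overlap. The eosinophil list reaches -5.32 with a median of -3.73, while the medians of the other lists lie between -0.72 and 0.40.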

How the data were processed

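RNA of BALF cells from both genotypes, all bleomycin-administered, was hybridized to 4 one-color Agilent arrays, 2 per genotype. The authors deposited the intensity of every spot as the scanner software wrote it, with the local background corrected in the processed signal, and their own normalized log2 table, which served as an alternative. The submitters' processing notes name Feature Extraction 10.7.3.1, the file headers 11.0.1.1, and the scanner model differs as well. Flagged spots (115 to 273 per array) were left out, and 0 spots were saturated.

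Values were log2 of the processed signal over the 75th percentile of the array, with a floor of 0.01 set after scaling, and replicate spots were averaged. Names were assigned to probes through their accession in RefSeq (GRCm38.p6), which named 69.6% of 39429 probes. The filter kept 27158 probes that had a value on each of the 4 arrays and whose signal was well above background throughout a genotype. limma 3.58.1 in R 4.3.3 (lmFit, eBayes) was fitted over all of them with Benjamini-Hochberg adjustment, and tested on simulated data. A named gene was represented by its brightest probe (15429 genes). With 2 arrays against 2, an exact test cannot go below p = 0.333, so that precision is limited by the number of arrays.

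The members and the 16 gene lists were chosen with earlier results of these data known, and 1 gene of a list is not reported here. The genes named are the 9 members, S1pr2, genes of the lists and, for Gata1 and Cebpe, the 8 genes with the nearest pattern. Alternatives were quantile normalization, another percentile base, normexp correction (on the median signal), no floor, the authors' table, other filters, a trended variance, the test of the methods, the replicate number as a block, and each array left out. The files hold no probe sequences, and the array design uses another genome build, so that coordinates are given only for RefSeq windows.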

Additional observations from a re-analysis of the deposited data

How the results depend on the processing

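For Gata1 and Cebpe the direction and the 0.5-fold call held in 10 of 10 alternatives, including each array left out, with -6.35 to -4.82 for Gata1 and -5.22 to -3.52 for Cebpe. Removal of the floor and the replicate block could not move these differences, which stayed at -5.58 and -4.37. They therefore add no evidence of stability. The authors' table gave -5.59 and -4.37, and it moved every tested member probe by nearly the same small amount. The other percentile base did the same for every tested member but Gata1, with Cebpe at -4.36. As changes of scale alone, these add little evidence of stability, except that the percentile base moved Gata1 to -4.93. Normexp correction brought Gata1 to -3.55. The count of member probes higher without overlap was 1 and that of probes lower without overlap 4. Both were unchanged under every alternative that kept all arrays. When an array is left out, groups that were apart stay apart and others can become so. Both counts can then only stay or rise, and nothing is read from them. With an array left out, the lone array was assumed to vary like the others.

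Counts over all probes moved more. At an adjusted p under 0.05, normexp gave 1 lower and 1 higher probe in place of 0 and 0. Below 0.5-fold with an unadjusted p under 0.05 there were 172 probes (0.633%), against 79 with the percentile over probes well above background, 101 with normexp, 95 with no filter, 57 with the test of the methods, and 85 to 343 with single arrays left out. Above 2-fold there were 29 (0.107%), against 15 with that percentile, 18 with normexp, 78 with the authors' table, 77 with no floor, 15 with the test of the methods, and 34 to 105 with single arrays left out. The replicate numbers share only a number: same-numbered arrays deviated together with a correlation of 0.187, and the replicate block gave 0 and 0 at the adjusted threshold and 152 lower and 34 higher past 2-fold. The cause of these differences was not tested.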
